A study of Rattus norvegicus with 6 samples.

Results

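Of the 101603 distinct accessible sites (ACS) found by ATAC-seq in rat islets, 8175 (8.05%) were annotated as distal and lay more than 500 kb from their nearest gene. These gene desert ACS were chosen by the class and the distance that the deposited table gives for each site, and their counts played no part in the choice. Of the 8175, 4708 lay upstream and 3206 downstream of the nearest gene, and 261 lay inside it but more than 500 kb from both of its ends. The median distance was 817379 bp and the longest was 3985943 bp, and 2958 of the sites (36.2%) were over 1 Mb away.

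Gene deserts are long stretches of chromosome with few or no protein-coding genes. Many of them flank genes for developmental transcription factors and hold enhancers, which are stretches of DNA that bind transcription factors and raise the activity of a promoter through contact across a chromatin loop. The open chromatin of such an enhancer is cut readily by the Tn5 transposase, so that ATAC-seq, which counts the positions where Tn5 has inserted sequencing adapters, can find it without knowledge of the gene it acts on. The nearest gene of a gene desert ACS is therefore named here only as its neighbour on the chromosome, not as its target.

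The libraries compared islets before and after postnatal maturation in Sprague–Dawley rats with no genetic change. The 3 Adult libraries (replicates 4, 5 and 6) were made from islet cells of single adult male rats, and the 3 P10 libraries (replicates 1, 2 and 3) from mixed pups of different litters at postnatal day 10, male and female. Age can thus not be told apart from sex or from pooling in these libraries, and whole islets were used, so that a change within a cell type cannot be told apart from a change in the share of that cell type. At promoters, 7 of the 10 beta cell markers and all 4 delta cell markers had an ACS, and 0 of the 8 immune markers did. Summed over the beta cell promoters, the normalised level was 179 to 245 CPM (integrations scaled to a library total of 1000000) in Adult and 219 to 353 in P10, and over the 3 acinar promoters with an ACS (of 10 markers) it was 17.8 to 26.2 and 24.4 to 28.6. The promoters of the delta cell markers (31.1 to 35.1 against 40.7 to 47.6) and of the 5 duct cell markers with an ACS (31.6 to 34.7 against 48.6 to 52.0) were lower in every Adult library than in every P10 library. Those of the 5 alpha cell markers with an ACS overlapped between ages, at 120 to 141 against 137 to 146. The pancreatic polypeptide, endothelial, mesenchymal and glial markers overlapped too. Over all 11055 ACS at transcription start sites, the median log2 fold change of Adult against P10 was -0.10, and the ages did not overlap at 20.8%. The part of these cell types in the results below was not tested.

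The ACS of each Adult library held between 7916919 and 11903909 integrations in all, and those of each P10 library between 13491534 and 21168463. Gene desert ACS took 635149 to 923276 of these in Adult and 1090796 to 1537470 in P10, and the median gene desert ACS held 24 to 33 integrations per Adult library and 43 to 59 per P10 library. The number of integrations in ACS therefore moved with age, while the total reads that the paper gives per library overlapped between ages. The part of this in the differences below was not tested. Between libraries of the same age, the correlation of log2 levels over the 8175 sites was 0.913 to 0.927 in Adult and 0.944 to 0.953 in P10, and between ages it was 0.896 to 0.908.

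The label was checked against the gene positions in the table and against the gene order of a newer assembly, GRCr8. No listed gene of any kind lay within 500 kb of 7171 of the sites (87.7%). Of all 8175, 7460 overlapped no listed gene, 288 lay inside a listed gene, which may be the nearest gene itself, and 427 lay only inside a gene span that exceeds 1 Mb and 10 times that gene's length in GRCr8, as is the case for 55 listed genes. Grouped by the pair of listed genes that flank them, the sites fell into 452 deserts, of which 309 held at least 5 sites and 1 held 246. The flanking genes of 92 deserts (1201 sites, 14.7%) were direct neighbours among the protein-coding genes of GRCr8, and 216 deserts (4487 sites) had 1 to 5 coding genes between them there. A further 71 deserts (1219 sites) had more than 5, so that these stretches are gene-poor by the annotation used but not free of genes in the newer one. The genes between could not be counted for the rest. Of these, 53 deserts (892 sites) had a flanking gene not matched and 11 (260 sites) lay at a chromosome end. The last 9 (116 sites) had flanking genes on different chromosomes of GRCr8. The word desert is used below for the stretch between listed neighbours in this sense.

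Gene desert ACS were narrower and weaker than other sites. Their median width was 327 bp against 373 bp over all ACS and 667 bp at transcription start sites (TSS), and their median count per library was 40.7 integrations against 64.8 and 235.5. Per 100 bp of width the median was 11.9 integrations, against 14.7 in intergenic ACS 100 to 500 kb from a gene and 16.5 within 100 kb. The median standard error of a log2 fold change (limma voom) was 0.35 for gene desert ACS and 0.30 over all ACS.

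Some of the strongest sites of the whole table were nevertheless gene desert ACS. They made up 7 of the 10 and 38 of the 100 sites with the highest mean level, and of these 38 sites 22 lay between *Rras2*, a small GTPase of the Ras family, and *Copb1*, a coat protein of vesicles, and 7 between *Cdh19*, a cadherin, and *Tsn*, which encodes translin. The strongest (chr1:187599137-187599851 on Rn5, 1620687 bp upstream of *Rras2*) stood at 2240, 3227 and 2817 CPM in Adult and 2392, 3033 and 3172 in P10. The groups overlapped, and the log2 fold change of Adult against P10 was -0.05 ± 0.09 (SE, limma voom, n = 3 and 3). The next in rank, chr1:187767903-187769143, stood at 1750, 2584 and 2144 in Adult and 1725, 1951 and 2012 in P10. At chr13:38640750-38641392, 730014 bp downstream of *Tsn*, the levels were 1357, 2040 and 1723 in Adult and 1352, 1774 and 1794 in P10. In all 3, Adult replicate 5 was the highest Adult library and P10 replicate 1 the lowest P10 library. Without Adult replicate 4 the second of these was called Up (0.32, edgeR FDR 0.099). With all libraries none of the 38 gene desert ACS among the 100 strongest was called in either direction, with log2 fold changes from -0.24 to 0.28, whereas of the 62 other sites among the 100 strongest 6 were called Up and 2 Down.

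As a share of all integrations in ACS, gene desert ACS took 6.88%, 8.95% and 8.02% in the Adult libraries and 6.63%, 8.09% and 8.49% in the P10 libraries. Counting error alone gave 95% Wilson intervals of at most 0.0189 percentage points to either side of these shares. The means of 7.95% ± 1.04 and 7.74% ± 0.98 (SD, n = 3 each) differed by less than the spread between replicates (two-sided exact permutation test, n = 3 each, p = 0.8, where 0.1 is the smallest p that this design can give). Without the *Rras2* to *Copb1* and *Cdh19* to *Tsn* deserts the shares were 5.16% ± 0.39 and 4.94% ± 0.55 (exact permutation test, n = 3 each, p = 0.6). Within each age the order of the libraries was the same in both of these deserts as in the whole set, with Adult replicate 4 and P10 replicate 1 the lowest of their groups.

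**Figure D1:**
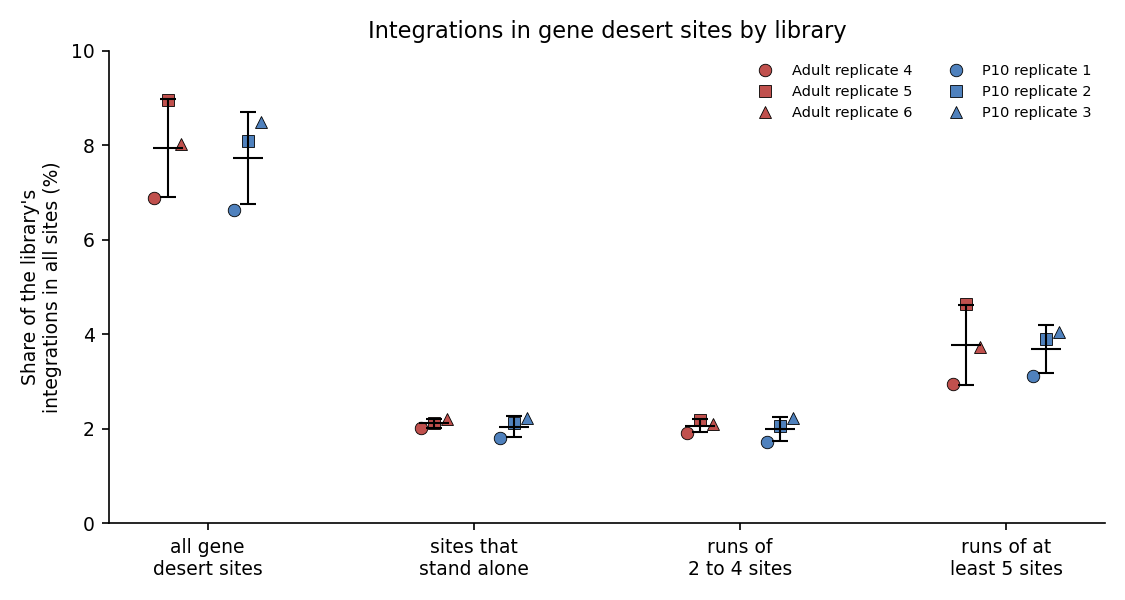
Share of each library's integrations that fell into gene desert ACS (vertical axis, percent of the integrations in all ACS), for all 8175 sites and split by whether a site stands alone or lies in a run of sites with gaps of at most 12.5 kb. Points are libraries, bars the mean and SD of 3 libraries per age. The libraries of both ages overlap in each column, and runs of at least 5 sites range from 2.94% to 4.65% in Adult.

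To find sites that differed between ages, integrations were tested with the quasi-likelihood test of edgeR over all 101603 ACS, and a site was called at p under 0.05 and a false discovery rate (FDR, Benjamini-Hochberg over all ACS) under 0.2. Up means more integrations in Adult and Down fewer. Among gene desert ACS, 937 (11.5%) were called Up, against 12.3% of all ACS, and 488 (5.97%) were called Down, against 6.63% of all ACS. Both shares were near that background. The Down count rested on P10 replicates 2 and 3, since it was 240 without the former and 248 without the latter. With column sums in place of the trimmed mean of M values (TMM) as the scale, 791 sites were called Up and 682 Down, and with the total sequenced reads of each library 110 and 4220. Column sums moved the median log2 fold change of the other ACS from -0.01 to -0.11, and total reads moved it to -0.85. The split between directions therefore depends on the scale, while the median log2 fold change of gene desert ACS minus that of other ACS was 0.05, 0.05 and 0.06 under these 3 scales. That difference was negative without Adult replicate 5 (-0.04) or without P10 replicate 1 (-0.06), and it was smaller than the spread between replicates.

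The called sites moved by a median of 0.95 (Up) and -0.98 (Down) on the log2 scale. At 415 Up and 234 Down sites the change exceeded 2-fold, and at 25 and 12 it exceeded 4-fold. All 3 Adult libraries lay above all 3 P10 libraries at 776 of the 937 Up sites (82.8%) and below them at 390 of the 488 Down sites (79.9%). The calls were made from the same counts, so these shares are high by selection and add no support to the calls. Over all 8175 gene desert ACS the groups did not overlap at 21.1%, against 24.7% of all ACS. The calls that held when any single library was left out numbered 502 of the 937 Up and 158 of the 488 Down.

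The shares called were then set beside those of ACS nearer to genes. Up calls made up 13.7% of intergenic ACS 100 to 500 kb from a gene and 12.6% of those within 100 kb, and Down calls 6.16% and 6.69%. TSS sites stood apart, with 2.73% Up and 7.87% Down. Because the classes differ in count level, the shares of the other classes were also weighted to the count levels of gene desert ACS, which gave 11.5% Up and 6.12% Down at 100 to 500 kb and 9.68% and 6.89% within 100 kb. Among the gene desert ACS themselves, the 3532 sites between 500 and 750 kb held 11.9% Up and 6.94% Down, and the 657 beyond 2 Mb held 11.9% and 4.57%. The width of a site went with its share of calls, from 7.98% Up and 3.08% Down in the narrowest sites (202 to 250 bp, median count 18.3) to 16.6% and 8.87% in the widest (466 to 2064 bp, median count 121). At the limit of the rule, the 211 sites up to 10 kb beyond it held 12.3% Up and 10.9% Down, and the 225 distal sites up to 10 kb short of it held 13.3% and 8.89%.

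**Figure D2:**
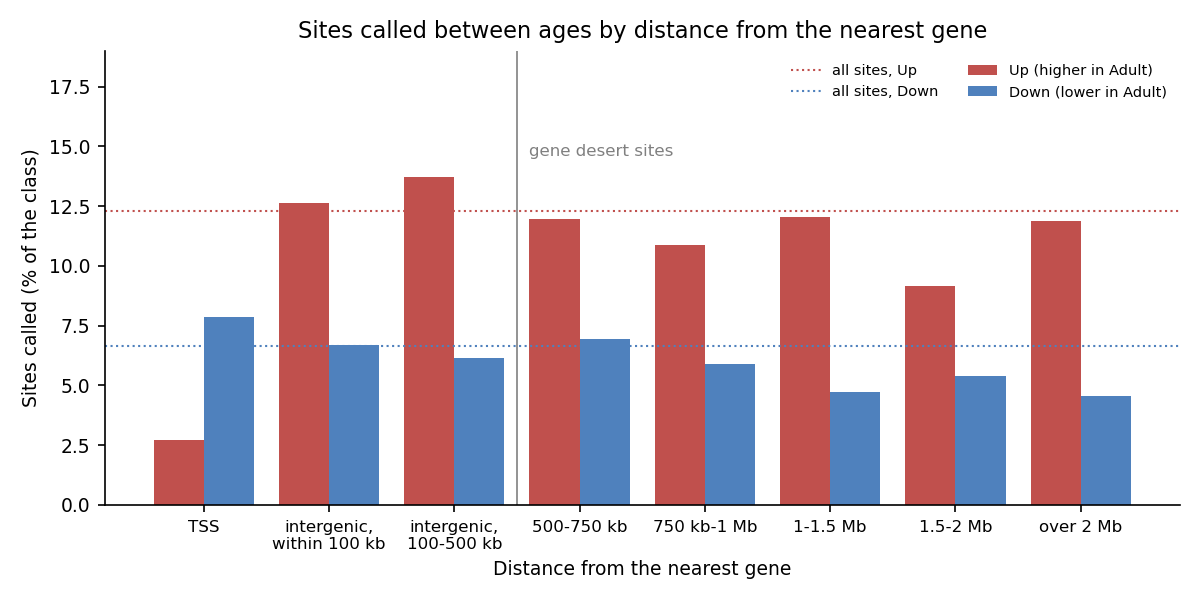
Share of ACS called Up and Down (vertical axis, percent of the class) by distance from the nearest gene (horizontal axis), with gene desert ACS to the right of the grey line. Dotted lines give the share over all ACS, 12.3% Up and 6.63% Down, and the Up bars of gene desert ACS lie between 9.16% and 12%.

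The gene desert ACS with the smallest p among the Up calls lay at chr2:233435143-233435586, 544962 bp upstream of *Prmt6*, which encodes an arginine methyltransferase of histones. It stood at 35.2, 23.7 and 33.1 CPM in Adult and 2.84, 3.07 and 4.07 in P10. Every Adult library was above every P10 library, with a log2 fold change of 3.20 ± 0.25 (SE, limma voom) and an FDR of 5.1e-09 in edgeR, the second smallest p of all 101603 ACS. The other 6 sites of the same stretch up to *Amy1*, an amylase gene, held 2 Down calls and no further Up call.

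The other 5 of the 6 leading Up calls were spread over as many chromosomes. At chr6:99423044-99423480, 649717 bp upstream of *Mdga2*, which encodes a membrane-anchored binding partner of synaptic adhesion proteins, the levels were 53.0, 44.0 and 48.2 in Adult and 14.3, 12.3 and 14.7 in P10. At chr1:36624021-36624604, between the homeobox gene *Irx1* and the Mediator subunit gene *Med10*, they were 28.9, 23.7 and 22.9 against 6.60, 5.78 and 4.55. These amount to log2 fold changes of 1.81 ± 0.18 and 2.16 ± 0.22 (edgeR FDR 2.1e-07 and 4.1e-07). Between the protocadherin gene *Pcdh7* and *Stim2*, which encodes a calcium sensor of the endoplasmic reticulum, chr14:58692453-58692796 stood at 21.9, 18.1 and 16.9 against 4.46, 3.99 and 3.91. Upstream of the sulfotransferase gene *Chst9*, on the side of the N-cadherin gene *Cdh2*, chr18:7580605-7580945 stood at 17.9, 12.47 and 17.9 against 3.63, 2.496 and 2.64. The narrow site chr16:15932813-15933031 upstream of *Eloa2l* stood at 9.40, 8.96 and 10.2 against 1.35, 1.36 and 1.53. These 3 rose by 2.20 ± 0.24, 2.44 ± 0.27 and 2.74 ± 0.31 on the log2 scale, and each of the 6 sites was called without any single library.

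The 6 leading Down calls had log2 fold changes from -1.36 to -2.24. The smallest p belonged to chr5:98272557-98273449, 2183206 bp upstream of *Dmac1*, which encodes an assembly factor of respiratory complex I, on the far side of which lies the melanin enzyme gene *Tyrp1*. It stood at 23.0, 17.4 and 20.6 in Adult and 53.1, 49.9 and 53.5 in P10, a log2 fold change of -1.36 ± 0.17 (edgeR FDR 6.2e-06). At chr3:152114756-152115514, upstream of the protease inhibitor gene *Cst7*, the levels were 15.1, 19.5 and 10.8 against 34.5, 49.4 and 44.9 (-1.49 ± 0.21). The deepest fall among the 6 was at chr4:206882570-206883188, between the glutamate receptor gene *Grm7* and *Lmcd1*, with 2.35, 2.43 and 2.32 against 5.996, 14.5 and 13.3 (-2.24 ± 0.39). There the Adult libraries lay close together, and P10 replicate 1 stood well below the other P10 libraries. Sites between *Skint1* and the lens transcription factor gene *Foxe3* (-1.41 ± 0.23), between the contactin-associated genes *Cntnap5c* and *Cntnap5bl1* (-1.41 ± 0.23) and between the cytochrome oxidase gene *Cox7c* and *Hapln1*, a link protein of hyaluronan (-1.36 ± 0.23), completed the 6. These 6 too were taken from sites without overlap, so that each P10 library was above each Adult library by choice. All were called without any single library.

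**Figure D3:**
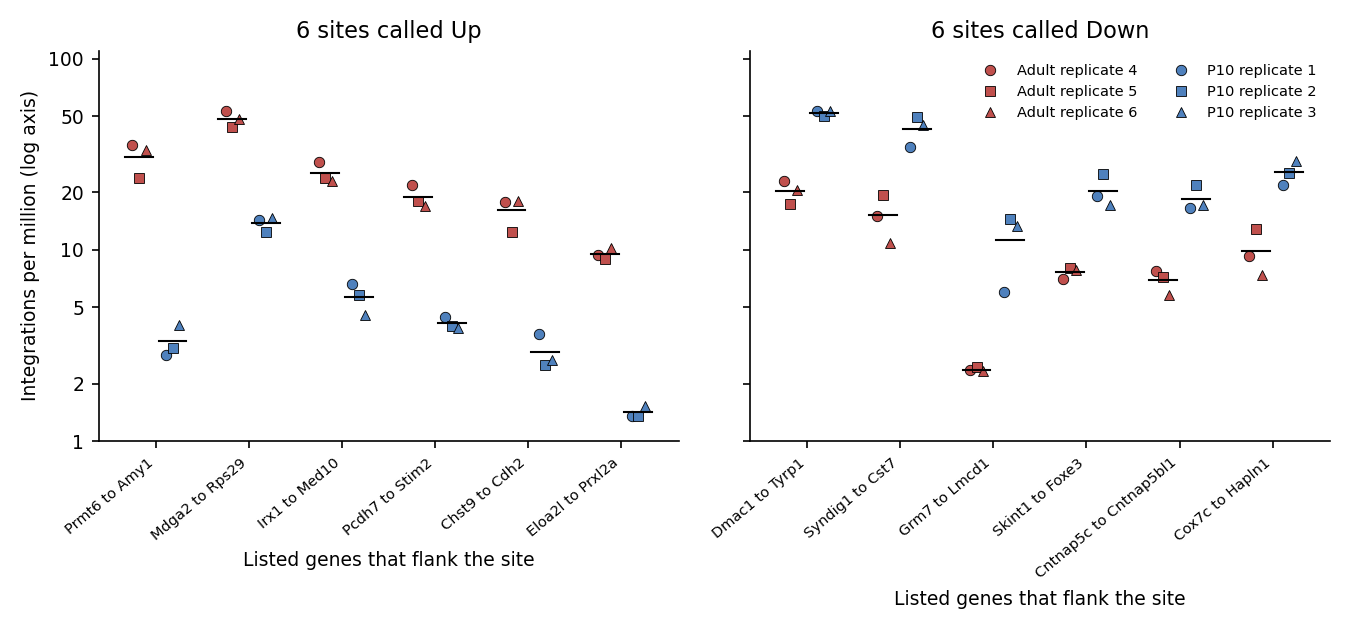
Normalised level in CPM (vertical axis, log scale) in each library at the 6 Up and 6 Down gene desert ACS with the smallest p among those without overlap between ages, named by the listed genes that flank them. Points are libraries and black lines the group means, which run from 9.51 to 48.4 in Adult at the Up sites and from 11.2 to 52.2 in P10 at the Down sites.

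None of the 5 sites farthest from their nearest gene was called with all libraries. The farthest, chr13:5928293-5928715, lay 3985943 bp upstream of *Dsel*, which encodes an epimerase-like enzyme of dermatan sulfate, and stood at 4.25, 4.67 and 5.16 in Adult and 4.37, 3.99 and 5.97 in P10. A second site 3984599 bp from *Dsel* stood at 1.81, 3.798 and 2.96 against 2.23, 2.35 and 3.81. The other 3 of the 5 farthest lay between the cadherin gene *Cdh10* and *Basp1*, a gene for a growth cone protein, at distances from 3898393 to 3971060 bp from the latter. The log2 fold changes of the 5 ranged from -0.05 to 0.32 with standard errors of 0.25 to 0.53 (limma voom). The site 3898393 bp from *Basp1* was called Up without Adult replicate 5 (0.57, edgeR FDR 0.16).

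Gene desert ACS were often grouped. When sites with gaps of at most 12.5 kb were joined, 3196 sites (39.1%) stood alone, 3355 lay in runs of 2 to 4 and 1624 lay in 190 runs of at least 5. Of the sites that stood alone, 14% were called Up and 8.57% Down, against 11.4% and 5.54% in runs of 2 to 4 and 6.77% and 1.72% in runs of at least 5. The median count was 40.1 at sites that stood alone, 35.2 in runs of 2 to 4 and 61.3 in runs of at least 5. The same joining of intergenic ACS 100 to 500 kb from a gene gave 15.2% Up and 7.91% Down at sites that stood alone and 10.2% and 3.08% in runs of at least 5.

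In the long runs the libraries differed in a manner that did not follow age. In runs of at least 5 sites Adult replicate 5 was the highest of the 6 libraries at 50.1% of the sites, and the lowest was P10 replicate 1 at 36.1% and Adult replicate 4 at 34.8%. At sites that stood alone these shares were 20.4%, 25.2% and 22.8%, and over all ACS 16.6%, 14.7% and 19.4%. Runs of at least 5 among intergenic ACS 100 to 500 kb from a gene showed a like order, with 33.5%, 21.6% and 33.6%. Runs of at least 5 took 2.94%, 4.65% and 3.72% of the integrations in Adult and 3.11%, 3.90% and 4.05% in P10, so that the ages overlapped. The 110 Up calls in these runs became 212 without Adult replicate 4 and 63 without P10 replicate 1, and the 28 Down calls became 56 without Adult replicate 5, 51 without P10 replicate 1 and 13 without P10 replicate 2 or 3. At sites that stood alone, by comparison, the 446 Up calls ranged from 333 to 452 under the same omissions, and the 274 Down calls fell to 137 without P10 replicate 2 and 141 without P10 replicate 3. What sets the long runs apart between libraries was not tested.

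**Figure D4:**
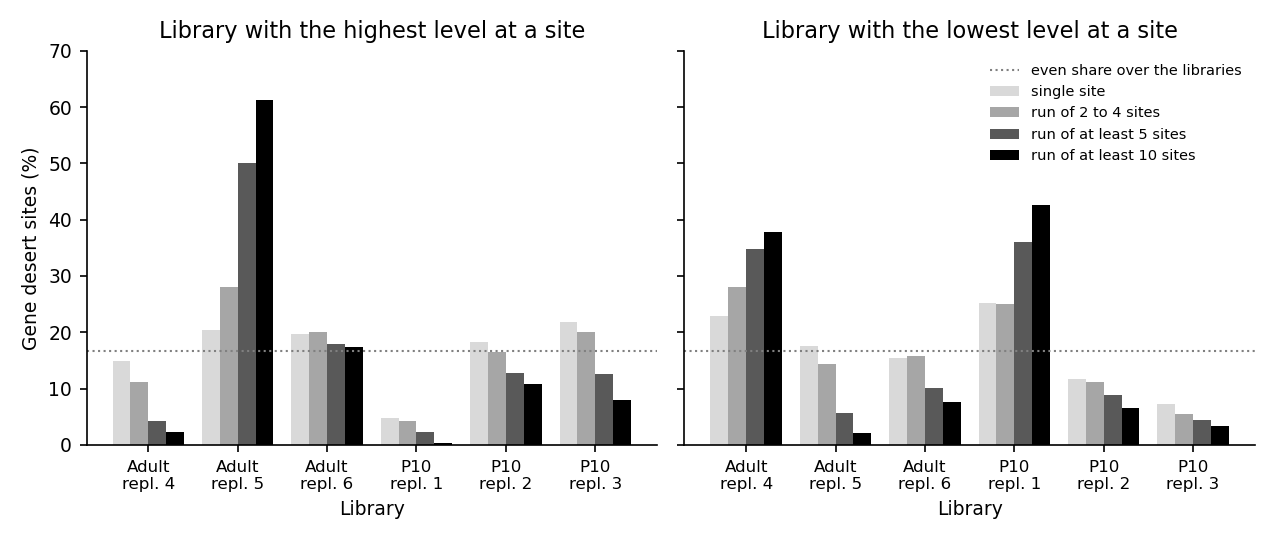
Share of gene desert ACS (vertical axis, percent) at which each of the 6 libraries (horizontal axis) held the highest level (left) or the lowest level (right), by the number of sites in the run. The dotted line is an even share over the libraries. Adult replicate 5 is the highest at 20.4% of sites that stand alone and at 61.2% of sites in runs of at least 10.

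The runs with the most sites are described next. The largest, 44 sites at chr7:443628-569299 near the chromosome end, summed to 376, 556 and 481 CPM in Adult and 341, 473 and 449 in P10, and 0 of its sites were called (edgeR). Second were 42 sites at chr19:39771312-39911205 between *LOC100359783* and *Inpp4b*, which encodes a phosphoinositide phosphatase, with 636, 717 and 1105 against 676, 556 and 791, where 2 sites were called Up. Of the runs of 30 sites that follow, that at chr2:380297-508617 stood at 112, 186 and 164 against 122, 167 and 156, with 2 Up calls and 1 Down. That at chr1:13473658-13564361 held 1 call in each direction, and that at chr12:5476177-5542505 held 4 Up calls and stood at 790, 1197 and 1030 against 688, 983 and 953. In each of these 5 runs the ages overlapped. Adult replicate 5 was the highest library in all of them except that on chromosome 19, where Adult replicate 6 was. Runs with several calls in a single direction were few, since 18 runs had at least 3 Up calls and no Down call and 0 had at least 3 Down calls and no Up call.

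The log2 fold changes of neighbouring gene desert ACS were weakly correlated. Over 2265 pairs of neighbours within 5 kb of each other r was 0.30, over 1851 pairs between 5 and 20 kb 0.19 and over 2630 pairs between 20 and 100 kb 0.11, and over 977 pairs farther apart it was 0.15. All pairs share the same 6 libraries, and the values describe these libraries only. Where both neighbours were called, the direction was shared in 75 of 88 pairs within 5 kb and in 95 of 138 pairs between 20 and 100 kb. For intergenic ACS 100 to 500 kb from a gene the correlations were 0.20, 0.11 and 0.08, with a shared direction in 188 of 232 and 244 of 374 pairs.

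Most deserts with several called sites held calls in both directions. Of the 452, 123 held no called site, and of the 181 with at least 3 called sites 134 held calls in both directions, 39 held Up calls alone and 8 held Down calls alone. The desert with the most Up calls lay between *Veph1*, which encodes a pleckstrin homology domain protein, and the homeobox gene *Shox2* on chromosome 2, a gap of 5.96 Mb with 156 sites, of which 38 were called Up and 1 Down. Its summed level was 958, 1353 and 1065 CPM in Adult and 708, 935 and 926 in P10, with all Adult libraries above all P10 libraries and a log2 fold change of 0.39 (edgeR on summed counts, FDR 0.14). That call of the summed level held in 1 of the 6 fits that leave out a library. Without Adult replicate 5 or P10 replicate 1 its Up calls numbered 21 and 24. In GRCr8 the gap holds 2 coding genes, among them *Ptx3*, which encodes a secreted pentraxin.

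The *Rras2* to *Copb1* desert followed with 34 Up calls and 0 Down calls among 246 sites in 4.69 Mb, but its summed level of 17476, 26564 and 20254 in Adult overlapped with 16984, 21368 and 22108 in P10 (log2 fold change 0.09, FDR 0.94). The Up calls lay among its weak sites, with a median of 4.46 CPM against 22.3 at the 212 sites not called. They numbered 53 without Adult replicate 4, 12 without Adult replicate 5 and 15 without P10 replicate 1. The stretch from *Cd320* to *Smokl3* on chromosome 7 came next, with 23 Up calls and 1 Down call among 183 sites and summed levels of 2124, 3394 and 2611 against 2083, 2570 and 2609. Its Up calls numbered 39 without Adult replicate 4 and 12 without Adult replicate 5. Of its sites 106 lie inside a span of 3.85 Mb that the table gives for the vomeronasal receptor gene *Vom2r57*. The large desert from *Cobl* to *Sec61g* on chromosome 14 held 20 Up calls and 1 Down call among 175 sites, and that from *Zfp58* to *Ppp1r14c* on chromosome 1 held 4 and 4 among 131. The Up calls of the former numbered 39 without Adult replicate 4 and 10 without Adult replicate 5 or P10 replicate 1, and those of the latter ranged from 1 to 13 under such omissions and its Down calls from 1 to 8.

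The desert with the most Down calls, 14 of the 488, lay between the olfactory receptor gene *Or4e5* and *Dad1*, a subunit gene of the oligosaccharyltransferase, where GRCr8 lists 181 gene segments of antigen receptors. Among 165 sites 14 were called Down and 4 Up, with summed levels of 461, 572 and 557 in Adult and 464, 706 and 628 in P10, which overlapped. The Down calls numbered 28 without P10 replicate 1, 8 without Adult replicate 4, 4 without P10 replicate 3 and 1 without P10 replicate 2, so that single libraries decide this count. The next in rank, *Prkacb* to *Adgrl4* on chromosome 2, held 12 Down calls beside 10 Up calls among 87 sites, and *Aga* to *Tenm3* on chromosome 16 held 11 beside 10 among 63. Their summed log2 fold changes were 0.24 and 0.00 (edgeR FDR 0.32 and 0.995). Without P10 replicate 2 the former held 6 Up calls, and the latter held 4 Down calls without P10 replicate 2 and 2 without P10 replicate 3.

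When the counts of each of the 309 deserts with at least 5 sites were summed and tested together in edgeR, 79 (25.6%) were called Up and 12 (3.88%) Down. Summed counts are larger than those of single sites, and no other class of ACS was summed likewise. These shares therefore have no background and cannot be set against the shares of single sites. The Up count was 48 without P10 replicate 2 and 49 with column sums as the scale. The Down count was 32 without P10 replicate 1, 3 without P10 replicate 2, 4 without P10 replicate 3, 5 without Adult replicate 6, 7 without Adult replicate 4 and 22 with column sums. The deserts named next were chosen after their values were seen. The smallest p belonged to the 5 sites between *Syndig1*, which encodes a synaptic membrane protein, and *Cst7*, all called Down, with a summed level of 57.2, 62.8 and 38.9 in Adult and 89.4, 112 and 112 in P10 (log2 fold change -0.97, FDR 2.5e-09). GRCr8 lists 11 coding genes in that gap. Among Up deserts, the 10 sites between *Sugct* and *Inhba*, a subunit gene of activin and inhibin, whose flanking genes are direct neighbours in GRCr8, summed to 132, 108 and 148 against 64.9, 73.2 and 78.4 (0.84, FDR 2.4e-07). Of these sites 4 were called Up and 2 Down, and their median log2 fold change was -0.07. The 7 sites between the atypical cadherin gene *Fat3* and *LOC500948* summed to 176, 234 and 188 against 50.8, 124 and 152, with 6 of the 7 called Up. The 6 sites between *Crnkl1* and *Nkx2-2*, which encodes a homeodomain transcription factor of islet cells, summed to 79.7, 78.9 and 71.0 against 94.0, 116 and 107 (-0.47, FDR 0.0083), with 5 called Down. GRCr8 lists 7 coding genes in that gap, among them *Insm1*, a transcription factor gene of endocrine cells. In each of these 4 deserts the ages did not overlap, which the choice of deserts with small p favours. Not all called deserts were so separated. That from *Mir6322* to *Galnt17* was called Up (0.71, FDR 2.7e-05) with 129, 87.1 and 53.4 in Adult against 61.4, 48.6 and 55.6 in P10. The ages also overlapped from *Tfap2b* to *Mir206*, which was called Down (-0.45, FDR 0.093). In the 4 deserts the call of the summed level held without any single library. In those fits the number of called sites ranged from 3 to 5 Down from *Syndig1* to *Cst7*, from 1 to 4 Down from *Crnkl1* to *Nkx2-2*, from 4 to 6 Up from *Fat3* to *LOC500948*, and from 3 to 4 Up and 0 to 3 Down from *Sugct* to *Inhba*.

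**Figure D5:**
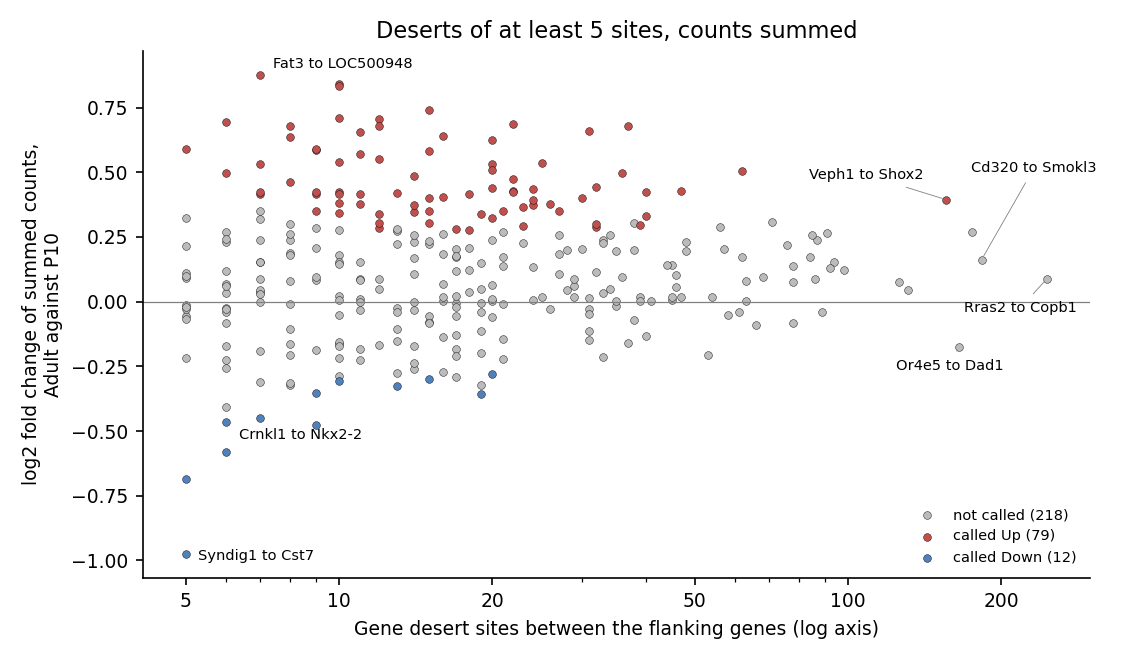
log2 fold change of the summed counts of Adult against P10 (vertical axis) for the 309 deserts with at least 5 gene desert ACS, by the number of sites (horizontal axis, log scale). Points are deserts, with 79 called Up and 12 called Down, and the large deserts from *Rras2* to *Copb1* and *Or4e5* to *Dad1* lie near 0, at 0.09 and -0.18.

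Grouped by their nearest gene, gene desert ACS next to developmental transcription factors numbered 351 at 37 genes. Of these, 55 were called Up (15.7%) and 24 Down (6.84%), against 12.3% and 6.63% of all ACS. The median log2 fold change was 0.16 against -0.01 over all ACS. Among the 351 sites, 87 lay next to *Shox2* with 13 Up calls and 0 Down calls. A site 550057 bp upstream of *Pou3f2*, a POU factor of the nervous system, stood at 14.1, 12.4 and 15.7 in Adult and 2.05, 2.85 and 3.22 in P10, a log2 fold change of 2.38 ± 0.27 (SE, limma voom, edgeR FDR 1.0e-06). Another 686282 bp upstream of *Ebf1*, a factor of B cells and other lineages, stood at 13.4, 11.3 and 17.0 against 3.53, 3.71 and 3.44. Both sites were chosen for their small p, and in both the groups did not overlap.

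Next to transcription factors of islets there were 57 sites at 8 genes, with 6 called Up (10.5%) and 6 Down (10.5%) and a median of -0.12. Over all ACS the shares were 12.3% and 6.63%. *Irx1*, a homeobox gene on this list and the developmental list, had 26 of them, 4 Up and 1 Down, and the site 885188 bp downstream of it stood at 13.6, 9.06 and 14.1 against 2.65, 3.14 and 3.86. The site 575332 bp downstream of *Isl1*, a LIM homeodomain factor needed for endocrine cells, was lower in Adult, with 9.67, 8.96 and 9.54 against 18.5, 18.8 and 16.4 (-0.93 ± 0.21, edgeR FDR 0.0043). Next to *Tox3* the only gene desert ACS stood at 11.3, 7.60 and 10.2 against 5.48, 4.21 and 2.75. At these 3 sites, chosen for their small p, the ages did not overlap. Over the list they did not overlap at 29.8% of the 57 sites, against 24.7% of all ACS.

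Genes of cell adhesion and axon guidance had the most gene desert ACS, 1005 at 57 genes, with 124 called Up (12.3%) and 63 Down (6.27%) and a median of 0.00, close to all ACS. The smallest p here belonged to a site 2579191 bp downstream of *Cntnap5c*, with 30.2, 18.9 and 33.8 in Adult and 6.55, 7.49 and 5.13 in P10 (2.11 ± 0.24), one of 4 Up and 2 Down among the 60 sites of that gene. Next to the cadherin gene *Cdh6*, 6 of 16 sites were called Up and 0 Down, and the site with the smallest p stood at 17.8, 14.4 and 15.2 against 3.35, 4.35 and 3.70. Inside the neurexin gene *Nrxn3*, 537754 bp from its nearer end, a site stood at 22.2, 22.2 and 23.7 against 6.18, 7.56 and 8.78, while the 16 sites of this gene held 3 calls in each direction.

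Genes of ion channels and transmitter receptors had 233 sites, with 29 Up calls (12.4%) and 19 Down calls (8.15%) and a median of -0.03. All ACS held 12.3% Up and 6.63% Down. The potassium channel gene *Kcnk9* had 51 of these with 10 Up and 4 Down, and its leading site, 583936 bp downstream, stood at 20.7, 14.7 and 17.5 against 4.04, 2.43 and 3.75. A site 732391 bp downstream of the channel gene *Kcnt2* was also called Up, with a log2 fold change of 1.75 ± 0.27 (SE, limma voom). Proliferation genes had 43 sites at 6 genes, 3 called Up (6.98%) and 4 Down (9.30%). A weak site 641616 bp downstream of *Myc* stood at 4.61, 3.51 and 7.99 against 1.81, 1.64 and 1.90 and was called Up. The site 794011 bp upstream of *Prlr*, the prolactin receptor gene, stood at 3.34, 7.99 and 4.90 against 8.04, 10.5 and 10.7 and was called Down (-0.84 ± 0.29, edgeR FDR 0.059), and without Adult replicate 4 it was not called (FDR 0.28). That next to *Mki67* (3.07, 1.56 and 1.29 against 3.02, 3.14 and 4.70) was called Down (-0.85 ± 0.38, edgeR FDR 0.17) although the ages overlapped, and the call held in 2 of the 6 fits that leave out a library.

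Olfactory and vomeronasal receptor genes were the nearest genes of 297 sites at 12 genes. Of these sites, 29 were called Up (9.76%) and 12 Down (4.04%), against 12.3% and 6.63% of all ACS. The leading site, 1303090 bp downstream of *Or1j21*, stood at 7.32, 14.4 and 8.89 in Adult and 2.32, 2.64 and 2.27 in P10 (2.08 ± 0.30). Sites near *Or4e5* and inside the span listed for *Vom2r57* were called Up with 1.76 ± 0.30 and 1.70 ± 0.39. Adult replicate 5 was the highest library at each of these 3.

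The calls are given here by chromosome. Chromosome 1 held the most, 1281 sites with 9.45% Up and 3.90% Down, against 8.11% and 8.61% of its other ACS. On chromosome 3, 10.5% of 315 sites were called Up and 14% Down, against 7.86% and 13.8% of the other ACS there. On chromosome 12, 22.6% of 84 sites were called Up and 0 Down, against 6.35% and 5.04%. The ages did not overlap at 10.7% of the 84 sites, so that part of these Up calls had overlapping ages. Among them, 5 lay between *Mir6322* and *Galnt17*, where the Up calls numbered 1 without Adult replicate 4. On chromosome 20, 26.5% of 83 sites were called Up and 4.82% Down, against 14.3% and 3.08%, and the ages did not overlap at 42.2%. Over all gene desert ACS the ages did not overlap at 21.1%, and over all ACS at 24.7%. These differences between chromosomes were not tested. Since the adults were male and the pups of both sexes, chromosome X was also compared. Its 248 gene desert ACS had a median log2 fold change that differed from that of autosomal ones by -0.04, and at other ACS the difference was -0.15. They took 1.29% ± 0.12 of the integrations in gene desert ACS in Adult and 1.31% ± 0.03 in P10 (SD, n = 3 each, two-sided exact permutation test, p = 0.8), and the X share of the other ACS was 2.04% ± 0.05 and 2.30% ± 0.04 (p = 0.1, exact permutation test, n = 3 each, the smallest that the design allows).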

How the data were processed

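ATAC-seq libraries of 3 Adult and 3 P10 rat islet samples were analysed from the deposited table of raw counts of Tn5 integrations per site. The authors aligned reads to Rn5, discarded reads of low mapping quality and mitochondrial reads, called peaks on the pooled reads of each age, merged the peak sets, counted integrations with pyDNase and annotated each site with its nearest gene. The submitters' processing notes list BWA 0.7.13, SAMtools 1.3, MACS2 2.1.1 and FastQC 0.11.2. Removal of duplicate reads is not given in the sources used here. Because peaks were called on pooled reads of the same libraries, a site need not be present in each library. The comparison columns of the table (log2 fold change, level, F, p and FDR) were not used. The 338 entries that repeat a site for a further gene were removed, which left 101603 sites.

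Counts were fitted with the quasi-likelihood test of edgeR 4.0.16 (R 4.3.3) over all sites, with TMM factors (0.93 to 1.04) on the column sums and age as the only term. CPM values use the same scaled totals. Standard errors are from voom in limma 3.58.1, and DESeq2 1.42.0 served as an alternative. Other steps used Python 3.11.15, pandas 2.3.3, scipy 1.17.1 and matplotlib 3.10.9. In counts simulated for this comparison over 101603 sites, 26.5% of 200 gene desert sites changed by 1 on the log2 scale were called, beside 9 false calls, and 0 sites were called when none had been changed. The simulated sites were independent, shared a single dispersion and differed between libraries only by the library totals. Only these 200 sites were changed, whereas 18.9% of all ACS were called in the data, so the simulated rates do not carry over to the data.

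Sites named are the 6 Up and 6 Down calls with the smallest p and no overlap between ages, the 5 strongest, the 5 farthest and up to 3 per gene list, of which 1 is not reported here. Deserts named are those with the most sites or the most calls in either direction. The members, the gene lists and these rules were chosen with earlier results of these data known. Gene order in GRCr8 was used for names and neighbours only, and 682 of the 689 nearest genes were matched to it. Positions are on Rn5. Listed genes are those nearest to at least 1 site. P-values set the difference between ages against the spread between these libraries. Intervals of shares cover counting error only. Alternatives were other scalings, tools, filters, thresholds and sets of members, and the omission of each library.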

Additional observations from a re-analysis of the deposited data

How the results depend on the processing

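The 937 Up and 488 Down gene desert ACS changed by over 1.5 times with total reads as library sizes (110 and 4220), with sites beyond 1 Mb only (332 and 144), with an FDR under 0.05 (538 and 165) and, for Up, with a mean of at least 50 integrations (611). The same held for the sets chosen after seeing the data, namely deserts whose flanking genes are neighbours in GRCr8 (164 and 102) and sites that stand alone (446 and 274), which hold fewer sites by construction. The sets beyond 1 Mb and with a mean of at least 50 integrations also hold fewer, 2958 and 3455 of the 8175. As shares, sites beyond 1 Mb held 11.2% Up and 4.87% Down, against 11.5% and 5.97% of all 8175. Sites with a mean of at least 50 integrations held 17.7% and 10.4%. Leaving out each library gave 692 to 955 Up and 240 to 656 Down. DESeq2's Wald test called 861 and 406, with 1313 sites without an adjusted p, and limma voom called 935 and 434. The median difference between gene desert ACS and other ACS ranged from -0.06 to 0.16 when each library was left out. The ratio of the Adult to the P10 share of integrations was 1.03, ranged from 0.959 to 1.10 when each library was left out, and was 0.622 as a share of total reads. The difference between X and autosomes on the log2 scale ranged from -0.059 to 0.0091 when each library was left out, the highest without Adult replicate 4. Deserts called on summed counts ranged from 48 to 88 Up and from 3 to 32 Down when each library was left out, and were 49 and 22 with column sums. At an FDR under 0.05, 3 deserts were called Down. The cause of these changes was not tested.

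With total reads as library sizes, 4 sites changed sign, to -0.64 (chr1:187767903) and -0.66 (chr1:187858242) between *Rras2* and *Copb1*, -0.75 (chr13:38640750) between *Cdh19* and *Tsn* and -0.78 (chr13:5926949) between *Dsel* and *Cntnap5c*. Of 403 values of the 29 called sites that the naming rule chose, 395 kept the call, 8 lost it and 0 changed sign. Of the 10 uncalled sites that the rule chose, 8 gained a call, 7 of them as Down with total reads and 3 as Up when a library was left out. The omissions of a library within deserts and runs were chosen after seeing the data. No paired analysis was possible, since the libraries came from single adult rats and from mixed pups, and no link between them is given. The median of 24 to 33 integrations per Adult library limits which differences could be called.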
